A study of Mus musculus with 15 samples.

Results

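The 5 genes described here, Ly9, Cd84, Cd48, Slamf9 and Slamf8, encode receptors of the SLAM family, and they were followed across 15 mouse brain libraries. They were taken from the gene count table by symbol: 5 of its 46078 genes. The family was selected on measured values, in that Ly9 had stood out when APP-PS1 brains were set against wild-type brains, so for the members every difference from wild type is a description without a test. The difference between antibody-treated and PBS-treated APP-PS1 brains did not enter that choice and was tested.

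SLAM receptors are immunoglobulin-superfamily proteins of haematopoietic cells, which include microglia, the resident macrophages of the brain. Most of them are their own ligand on a neighbouring cell; CD48, held in the membrane by a lipid anchor, instead binds CD244, and in mice also CD2. The tails of Ly9, CD84, SLAMF1, SLAMF6, SLAMF7 and CD244 carry tyrosine switch motifs. Depending on the receptor, these bind the small adaptor SAP, EAT-2 or both, or, in their absence, phosphatases. SLAMF8 and SLAMF9 have short tails without those motifs.

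APP-PS1 mice carry 2 transgenes, Mo/HuAPP695swe, which encodes the Swedish form of a mouse-human hybrid amyloid precursor protein, and PS1-dE9, a human presenilin 1 mutant. A prion protein promoter directs both to neurons of the central nervous system. In the first group, 5 APP-PS1 mice were injected intraperitoneally with antibody clone 2.43, directed at CD8a, 10 times over 4 weeks at 0.8 mg each. The second group was 5 APP-PS1 mice given 100 µL of PBS, and the third was 5 wild-type (WT) mice given PBS. All were 12 months old, of either sex, and perfused before 1 brain region, which the labels do not name, was dissected from 1 hemisphere. The rat isotype antibody named in the protocol is the label of none of the libraries used here, so the antibody is compared with PBS only.

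Gene counts summed to between 17736524 and 36485809 a library. At these depths 3 counts amount to 0.0822 to 0.169 CPM (counts scaled to a common library total), the unit of all levels below, scaled by trimmed-mean (TMM) factors; CPM compares 1 gene between libraries, and CPM per kilobase of exon compares genes. Ttr, a transcript of the choroid plexus, exceeded 1000 CPM in 5 libraries (anti-CD8a replicate 1, APP-PS1 PBS replicates 2 and 5, and WT replicates 3 and 5). In 1 library, APP-PS1 PBS replicate 1, the male label goes against the RNA, with Xist at 1910 CPM and Y-linked genes at 2.07 CPM, the pattern of the female libraries. WT has 4 labelled females among its 5 mice and each APP-PS1 group 2, and the model carried labelled sex as a covariate. Cd8a itself lay at 0.0824 to 0.707 CPM in anti-CD8a libraries, 0.167 to 0.519 CPM in APP-PS1 PBS libraries and 0.0866 to 0.366 CPM in WT libraries, or 3 to 21 counts, too few to read depletion of CD8 T cells from this tissue.

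In short, Ly9, Cd84, Cd48 and Slamf9 had higher means in both APP-PS1 groups than in WT, Ly9 by the most. This is a description, because the family was picked on that contrast. Their libraries also lay apart from those of WT, and the share of all genes that do so is not given here. Slamf8, the fifth, was near the detection floor in every group. Between anti-CD8a-treated and PBS-treated APP-PS1 brains, no member passed the test. Relative to a set of microglial genes that was itself higher in APP-PS1 brains, the Ly9 difference from WT remained near 3-fold, while those of Cd84, Cd48 and Slamf9 lay between 1.35-fold and 1.77-fold.

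Ly9 (ENSMUSG00000004707), a self-binding receptor known mainly from T and B cells, had 1.97, 3.11, 5.89, 2.44 and 1.68 CPM in the anti-CD8a libraries. In the APP-PS1 PBS libraries it had 2.81, 2.19, 2.30, 4.45 and 2.82 CPM, and in the WT libraries 0.980, 0.363, 0.433, 0.805 and 0.506 CPM. Every APP-PS1 library thus lay above every WT library, and the APP-PS1 groups overlapped, the anti-CD8a libraries spreading both lower and higher than the PBS libraries, with anti-CD8a replicate 3 and APP-PS1 PBS replicate 4 at their tops. The values rest on 59 to 175 counts in anti-CD8a libraries, 51 to 146 counts in APP-PS1 PBS libraries and only 10 to 31 counts in WT libraries. Group means were 3.02 ± 1.70 CPM with anti-CD8a, 2.91 ± 0.907 CPM with PBS and 0.617 ± 0.264 CPM in WT (SD, n = 5 each). The mean in APP-PS1 PBS brains was 4.72 times that in WT, and the sex-adjusted log2 fold change was 2.54 (SE 0.29). Anti-CD8a against WT, a comparison that reuses the same WT libraries, gave a log2 fold change of 2.52 (SE 0.28). Anti-CD8a against APP-PS1 PBS gave a log2 fold change of -0.03 (SE 0.24, 95% interval -0.53 to 0.48, adjusted p = 0.972, edgeR quasi-likelihood test with Benjamini-Hochberg adjustment over 18974 genes). That interval spans both a lower and a higher level under the antibody, so a change of up to about that size in either direction is not excluded.

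Cd84 (ENSMUSG00000038147) encodes another self-binding receptor with switch motifs, found on B cells, platelets and macrophages. Its level was 11.1, 13.1, 22.5, 13.2 and 11.3 CPM in anti-CD8a libraries, 13.7, 10.6, 13.2, 16.7 and 15.8 CPM in APP-PS1 PBS libraries, and 6.73, 5.47, 5.43, 6.78 and 7.14 CPM in WT libraries. The APP-PS1 groups overlap, with anti-CD8a replicate 3 above and the other 4 anti-CD8a libraries below 4 of the 5 PBS libraries, and neither group reaches down to WT. Mean levels were 14.3 ± 4.72 CPM with anti-CD8a, 14.0 ± 2.40 CPM with PBS and 6.31 ± 0.802 CPM in WT (SD, n = 5 each). The log2 fold change was 1.25 (SE 0.17) for APP-PS1 PBS against WT and 1.26 (SE 0.16) for anti-CD8a against WT. For anti-CD8a against APP-PS1 PBS it was 0.01 (SE 0.16, 95% interval -0.31 to 0.34, edgeR adjusted p = 0.975).

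Cd48 (ENSMUSG00000015355), the lipid-anchored ligand of CD244, had 2.04, 1.91, 3.81, 1.93 and 1.62 CPM in anti-CD8a libraries. It had 2.71, 1.87, 1.84, 2.62 and 2.82 CPM in APP-PS1 PBS libraries, and 1.30, 0.979, 0.837, 1.23 and 0.900 CPM in WT libraries. The lowest APP-PS1 library, anti-CD8a replicate 5, was still above the highest WT library. Group means were 2.26 ± 0.877 CPM with anti-CD8a, 2.37 ± 0.476 CPM with PBS and 1.05 ± 0.203 CPM in WT (SD, n = 5 each). Against WT, the log2 fold change was 1.35 (SE 0.21) for APP-PS1 PBS and 1.26 (SE 0.21) for anti-CD8a. The antibody against PBS gave -0.09 (SE 0.19, 95% interval -0.49 to 0.31, edgeR adjusted p = 0.850).

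Slamf9 (ENSMUSG00000026548), a short-tailed receptor of myeloid and dendritic cells, was at 1.47, 1.77, 2.76, 2.10 and 1.73 CPM in anti-CD8a libraries. APP-PS1 PBS libraries had 1.82, 0.918, 2.26, 1.92 and 1.60 CPM of it, and WT libraries 0.695, 0.761, 0.751, 0.636 and 0.647 CPM. WT libraries were tightly grouped, and the nearest APP-PS1 library was the choroid-rich APP-PS1 PBS replicate 2. Its means were 1.97 ± 0.498 CPM with anti-CD8a, 1.70 ± 0.499 CPM with PBS and 0.698 ± 0.0577 CPM in WT (SD, n = 5 each). The log2 fold change was 1.37 (SE 0.23) for APP-PS1 PBS against WT and 1.56 (SE 0.23) for anti-CD8a against WT. Slamf9 had the largest estimate of the 4 fitted members under the antibody, a log2 fold change of 0.19 (SE 0.20, 95% interval -0.24 to 0.63, edgeR adjusted p = 0.687), which did not pass the test.

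Slamf8 (ENSMUSG00000053318), a short-tailed receptor that in mouse macrophages is known to dampen the phagocyte oxidase, did not pass the filter on low counts and was left out of the fit. It had 0.300, 0.228, 0.573, 0.585 and 0.302 CPM in anti-CD8a libraries, 0.231, 0.106, 0.126, 0.153 and 0.552 CPM in APP-PS1 PBS libraries, and 0.253, 0.363, 0.202, 0.339 and 0.225 CPM in WT libraries. These are 3 to 17 counts a library, and all groups overlap. Means were 0.398 ± 0.168 CPM with anti-CD8a, 0.234 ± 0.184 CPM with PBS and 0.276 ± 0.0708 CPM in WT (SD, n = 5 each). Anti-CD8a against PBS gave an exact two-sided permutation p of 0.159, or 0.370 adjusted over the 7 such tests made on low-count SLAM receptors, the smallest possible p being 0.00794. Slamf8 is thus the member that did not stand higher in APP-PS1 PBS brains.

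**Figure D1:**
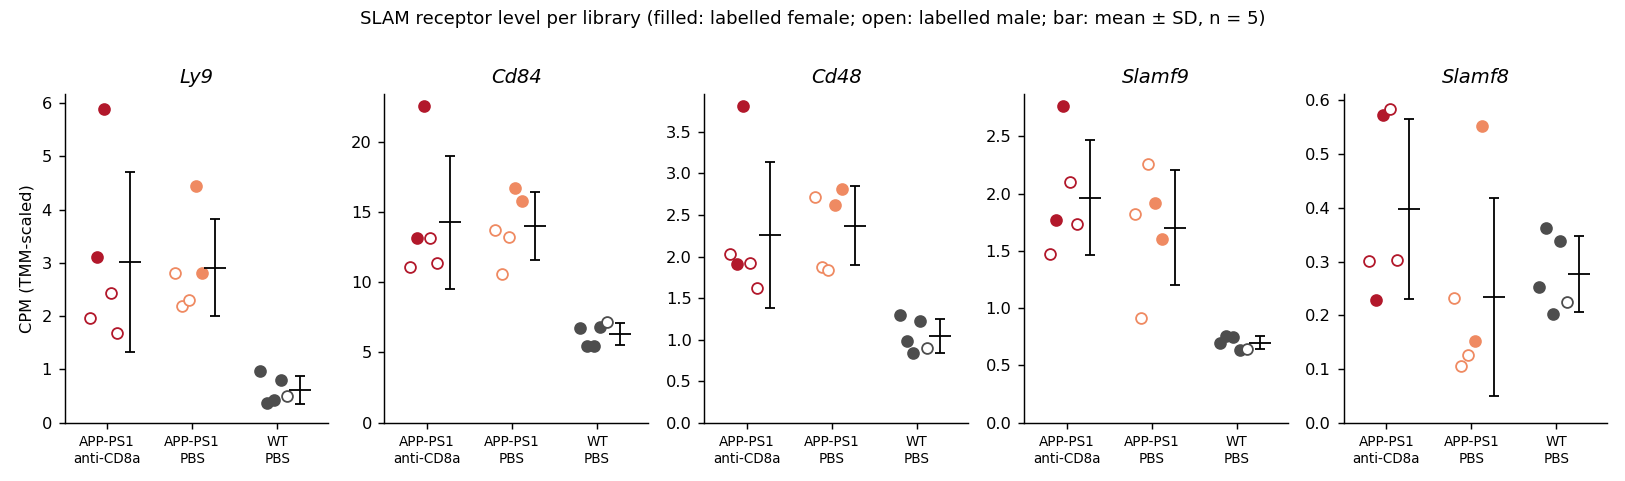
Level of each receptor in CPM (vertical axis, from 0, a scale per gene) in the 5 libraries of each group, with the group mean ± SD beside the points and labelled sex as filled or open symbols. Ly9, Cd84, Cd48 and Slamf9 show both APP-PS1 groups above all WT libraries, Slamf8 overlaps throughout, and anti-CD8a replicate 3 is the top point for Ly9 at 5.89 CPM and for Cd84 at 22.5 CPM.

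As counts, 4 of the 5 members could be fitted, and 4 were called higher in APP-PS1 PBS than in WT, a contrast in which 0.938% of all genes tested were called higher and 0.0896% lower. For anti-CD8a against WT the figures were again 4 members (without the 5 choroid-rich libraries 3 in each of these contrasts, Cd48 being lost at log2 fold changes of 1.36, SE 0.33, for APP-PS1 PBS and 1.18, SE 0.29, for anti-CD8a), with 1.76% of genes called higher and 0.184% lower. Because the members were picked with these contrasts known, nothing follows from those counts. For anti-CD8a against APP-PS1 PBS, 0 of 4 members were called and 0% of all genes were called higher and 0% lower; over all genes the smallest adjusted p was 0.223, 2529 genes had an unadjusted p under 0.05, none of them a member, and DESeq2 called 143 genes. DESeq2 gave an adjusted p for only 1 of the 4 fitted members there, Cd84 (0.990), and none for Ly9, Cd48 and Slamf9. The median log2 fold change of the 4 fitted members was -0.01 there, against 0.02 over all genes. It was 1.36 for APP-PS1 PBS against WT, where all genes had a median of -0.01.

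**Figure D2:**
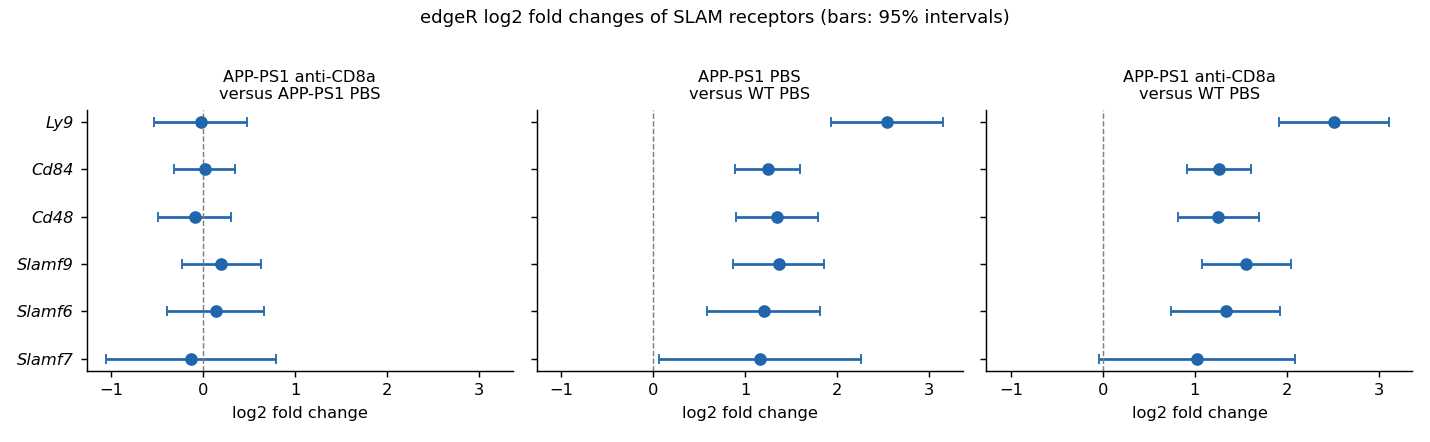
Log2 fold changes from edgeR (horizontal axis) with 95% intervals for the 6 SLAM receptors that passed the low-count filter, a panel per comparison. All 6 estimates lie within 0.20 of zero between the APP-PS1 groups and above 1 against WT, with Ly9 the farthest right at 2.54 and 2.52.

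Per kilobase of exon, Cd84 was the most abundant of the family, at 2.27 CPM per kb with anti-CD8a, 2.23 CPM per kb with PBS and 1.01 CPM per kb in WT. Cd48 followed at 1.90, 2.00 and 0.882 CPM per kb in the same groups, an interval from Cd84 smaller than either gene's SD between animals in the APP-PS1 groups. Slamf9 came next at 1.497 CPM per kb with anti-CD8a, 1.30 CPM per kb with PBS and 0.532 CPM per kb in WT, a step from Cd48 that lies within the SD of Cd48 with anti-CD8a but not in the other groups. Ly9 ranked below these in each group, at 0.913 CPM per kb with anti-CD8a, 0.881 CPM per kb with PBS and 0.187 CPM per kb in WT, and Slamf8 was lowest, at 0.129, 0.0758 and 0.0897 CPM per kb. Of the 5 members, the one with the largest fold difference from WT was thus the scarcest but for Slamf8. Bowtie2, the aligner used, does not place reads across introns, so the loss of spliced reads can differ between genes. Its part in this order was not tested.

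**Figure D3:**
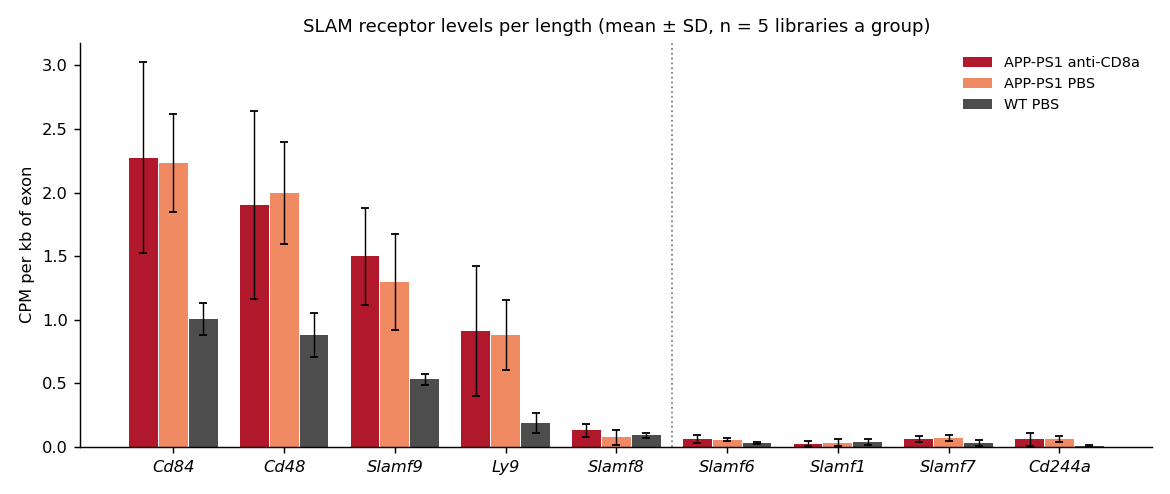
Mean level per kilobase of exon (vertical axis, CPM per kb) ± SD over 5 libraries for the 5 members, left of the dotted line, and 4 other SLAM receptors, right of it. Cd84 reaches 2.27 CPM per kb with anti-CD8a and every receptor right of the line averages 0.0677 CPM per kb or less.

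The remaining SLAM receptors of the table were all low. They were listed with the WT contrasts known, so their p-values against WT are a description only. Slamf6, a self-binding receptor of lymphocytes, averaged 0.679 ± 0.304 CPM with anti-CD8a, 0.609 ± 0.140 CPM with PBS and 0.309 ± 0.0927 CPM in WT (SD, n = 5 each). In edgeR it passed for anti-CD8a against WT (log2 fold change 1.34, SE 0.28, adjusted p = 0.0177) but not for APP-PS1 PBS against WT (1.20, SE 0.29, adjusted p = 0.0682), nor between the APP-PS1 groups (0.14, SE 0.25, adjusted p = 0.833). That call was lost under 5 of 25 alternatives, among them without anti-CD8a replicate 3, where the log2 fold change was 1.05 (edgeR adjusted p = 0.186). Slamf7, which in mouse macrophages works with the integrin Mac-1 in phagocytosis, averaged 0.292 ± 0.1099 CPM with anti-CD8a, 0.310 ± 0.114 CPM with PBS and 0.140 ± 0.115 CPM in WT. Its log2 fold changes were 1.16 (SE 0.52) for APP-PS1 PBS and 1.03 (SE 0.50) for anti-CD8a against WT, neither past the edgeR threshold (adjusted p = 0.405 and 0.434).

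Cd244a, the CD48 receptor, had 45 counts in all with anti-CD8a, 41 in APP-PS1 brains given PBS and 7 in WT. Its levels were 0.134, 0.257, 0.707, 0.172 and 0.165 CPM with anti-CD8a, 0.397, 0.141, 0.418, 0.275 and 0.331 CPM with PBS, and 0.0632, 0.109, 0, 0.0424 and 0.0281 CPM in WT. Both APP-PS1 groups lay above all WT libraries, with an exact two-sided permutation p of 0.00794 each, the smallest the design allows (adjusted p = 0.0278 over 7 tests). Both p-values share the same WT libraries, and the permutation took no account of sex. The family was picked on this contrast, so nothing follows from these p-values. Anti-CD8a against PBS gave an exact permutation p of 0.889. Cd244a and Cd48 each had higher means in APP-PS1 brains than in WT, Cd244a from only 0 to 3 counts in each WT library. Slamf1, the founding member of the family, overlapped in all groups, at 0.164 ± 0.106 CPM with anti-CD8a, 0.207 ± 0.158 CPM with PBS and 0.237 ± 0.155 CPM in WT (SD, n = 5 each). Its 3 exact permutation p-values ran upwards from 0.397.

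Genes that act on SLAM tails moved only in part. Of 14 listed adaptors and enzymes, 11 were tested, and 3 rose in APP-PS1 PBS brains over WT and 3 in anti-CD8a brains over WT, the same 3 in each. Of all genes tested, 0.938% were called higher in the first contrast and 1.76% in the second. This list and those that follow were drawn up with earlier results known, so differences from WT are a description. The adaptors themselves were hardly detected: SAP (Sh2d1a) averaged 0.0833 CPM with anti-CD8a, 0.0791 CPM with PBS and 0.0506 CPM in WT, and both EAT-2 genes (Sh2d1b1 and Sh2d1b2) also failed the filter. The 3 genes that rose were Ptpn6, encoding the phosphatase SHP-1, Inpp5d, encoding the lipid phosphatase SHIP1, and Vav1, an exchange factor of blood cells. Ptpn6 averaged 8.44 ± 3.20 CPM with anti-CD8a, 7.68 ± 1.49 CPM with PBS and 3.88 ± 0.637 CPM in WT (SD, n = 5 each). Its log2 fold change was 1.10 (SE 0.19, edgeR adjusted p = 0.00829) for APP-PS1 PBS against WT. Inpp5d had a log2 fold change of 0.71 (SE 0.12, edgeR adjusted p = 0.00723) and Vav1 of 0.69 (SE 0.14, edgeR adjusted p = 0.0195) in that comparison. Fyn, the kinase that SAP recruits and that neurons also express, was at 101 ± 3.31 CPM with anti-CD8a, 98.1 ± 7.63 CPM with PBS and 99.3 ± 3.20 CPM in WT. The list's median log2 fold change was 0.25 for APP-PS1 PBS against WT, 0.42 for anti-CD8a against WT and 0.09 between the APP-PS1 groups, where 0 of 11 passed.

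All 4 listed partners of SLAMF7 in phagocytes rose in both APP-PS1 groups over WT. Over all genes 0.938% were called higher with PBS and 1.76% with anti-CD8a. The list was drawn up with earlier results known, so nothing follows from its count. For APP-PS1 PBS against WT, the log2 fold change was 1.58 (SE 0.20, edgeR adjusted p = 0.000742) for Tyrobp, the DAP12 signalling chain, 0.98 (SE 0.14) for the integrin chain Itgb2, 0.95 (SE 0.15) for the Fc receptor gamma chain Fcer1g and 0.58 (SE 0.11) for the integrin chain Itgam. Tyrobp averaged 49.95 ± 20.7 CPM with anti-CD8a, 48.0 ± 11.7 CPM with PBS and 17.4 ± 2.09 CPM in WT (SD, n = 5 each). Between the APP-PS1 groups 0 of 4 passed, with a median log2 fold change of 0.10.

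The phagocyte oxidase was listed because SLAMF1 and SLAMF8 are known to act on it in mouse macrophages. Its genes Cybb and Ncf1 rose in both APP-PS1 groups over WT, and Cyba and Rac2 passed for anti-CD8a against WT only (log2 fold change 0.73 and 0.74, edgeR adjusted p = 0.016 each); whether the antibody and PBS groups differ was tested directly, and neither gene passed. Cybb, the catalytic subunit, averaged 3.33 ± 0.792 CPM with anti-CD8a, 3.42 ± 0.273 CPM with PBS and 1.20 ± 0.395 CPM in WT (SD, n = 5 each). For APP-PS1 PBS against WT this was a log2 fold change of 1.56 (SE 0.21, edgeR adjusted p = 0.00102). The class III PI3 kinase subunits Becn1, Pik3c3 and Uvrag had log2 fold changes of -0.09, -0.09 and -0.12 in that comparison and did not pass. Between the APP-PS1 groups none of the genes named here passed. The differences from WT are a description, as for the lists above.

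Marker genes of microglia also differed between the groups. The 12 genes of homeostatic microglia summed to 624 to 1124 CPM in anti-CD8a libraries, 643 to 828 CPM in APP-PS1 PBS libraries and 446 to 531 CPM in WT libraries. Of these 12 genes, 9 were called higher in anti-CD8a brains and 6 in APP-PS1 PBS brains, each against WT. The 12 genes of plaque-associated microglia summed to 745 to 1553 CPM with anti-CD8a, 843 to 1193 CPM with PBS and 494 to 700 CPM in WT. Against WT, 8 of these genes were called higher with anti-CD8a and 6 with PBS. Ctsd made up most of that sum, with a mean of 597 CPM of 949 CPM in APP-PS1 PBS brains. Gene by gene, the ratio of APP-PS1 PBS to WT means ran from 1.16 for Csf1 to 55.1 for Cst7, against 4.72 for Ly9. Between the APP-PS1 groups 0 of 12 passed in either list. Of all genes tested, 1.76% were called higher for anti-CD8a and 0.938% for APP-PS1 PBS, each against WT. Both lists were drawn up with earlier results known, so their counts are a description. Bulk tissue cannot tell more cells of a type from more RNA per cell, and the part of either in the SLAM differences was not tested beyond the ratios below.

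Lymphocyte markers were scarce by comparison. Summed CPM of 12 T cell genes was 4.11 to 5.42 with anti-CD8a, 3.59 to 4.77 with PBS and 3.71 to 4.60 in WT, with 11 of 12 genes below 1 CPM in each group. For 7 NK cell genes it was 0.241 to 0.713 with anti-CD8a, 0.165 to 2.54 with PBS and 0.109 to 1.80 in WT, every gene below 1 CPM in mean. The 8 B and plasma cell genes summed to 19.2 to 35.4 CPM with anti-CD8a, 16.4 to 25.3 CPM with PBS and 14.8 to 29.1 CPM in WT, and 1 gene made up most of it. None of the tested T cell (4 of 12), B and plasma cell (6 of 8), granulocyte and monocyte (5 of 8), border macrophage (7 of 7) or dendritic cell (5 of 6) genes was called in any comparison. NK cell and mast cell genes were all below the filter, the 4 mast cell genes summing to 0.872 CPM or less in every library. Granulocyte and monocyte sums were 1.94 to 3.79 CPM with anti-CD8a, 1.42 to 5.02 CPM with PBS, where Ly6g was at 0 throughout, and 1.89 to 2.98 CPM in WT. Border macrophage sums were 9.01 to 21.5 CPM with anti-CD8a, 10.6 to 32.2 CPM with PBS and 10.9 to 27.5 CPM in WT, and dendritic cell sums 28.8 to 31.4, 27.6 to 32.2 and 27.6 to 29.1 CPM in the same groups. Markers of neurons, astrocytes, oligodendrocytes and endothelium, the cells a brain sample should hold, were all present. Astrocyte genes summed to 1798 to 2616 CPM with anti-CD8a, 1949 to 2389 CPM with PBS and 1375 to 1581 CPM in WT, and 1 of 4 was called higher with anti-CD8a and 2 of 4 with PBS against WT. None of the 4 neuronal, 4 oligodendrocyte, 4 endothelial and 8 choroid plexus genes was called in any comparison; the choroid median log2 fold change was -1.75 for anti-CD8a against APP-PS1 PBS, -0.53 for APP-PS1 PBS against WT and -2.45 for anti-CD8a against WT, and its part in the SLAM values was not tested beyond leaving those libraries out.

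Set against the microglial sum of the same library, the receptors parted. Ly9 stood at 3.67 ± 1.05 CPM per 1000 CPM of homeostatic microglia genes with anti-CD8a, 4.01 ± 0.820 with PBS and 1.24 ± 0.480 in WT (SD, n = 5 each). Its ratio of group means to WT was 3.23 for APP-PS1 PBS and 2.96 for anti-CD8a, with no overlap of libraries, while the microglial sum itself was 1.45 times its WT level with PBS and 1.58 times with anti-CD8a. Cd84 stood at 18.0 ± 1.16 with anti-CD8a, 19.4 ± 1.97 with PBS and 12.8 ± 1.37 in WT on that scale, 1.52 and 1.41 times WT for PBS and anti-CD8a, again without overlap. How many of all genes part the libraries on this scale was not counted, so the lack of overlap is a description.

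Cd48 was at 2.85 ± 0.442 with anti-CD8a, 3.30 ± 0.554 with PBS and 2.12 ± 0.306 in WT per 1000 CPM of microglial genes. Its libraries did not overlap between APP-PS1 PBS and WT (ratio 1.56) but did between anti-CD8a and WT (ratio 1.35). Slamf9 was at 2.52 ± 0.203 with anti-CD8a, 2.37 ± 0.670 with PBS and 1.42 ± 0.189 in WT, where the anti-CD8a libraries cleared WT (ratio 1.77) and the PBS libraries overlapped it (ratio 1.66). Slamf8 went the other way, at 0.508 ± 0.176 with anti-CD8a, 0.325 ± 0.254 with PBS and 0.557 ± 0.122 in WT, with all groups overlapping. Since the same WT libraries serve both ratios, these 2 comparisons are not independent, and no test was made.

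**Figure D4:**
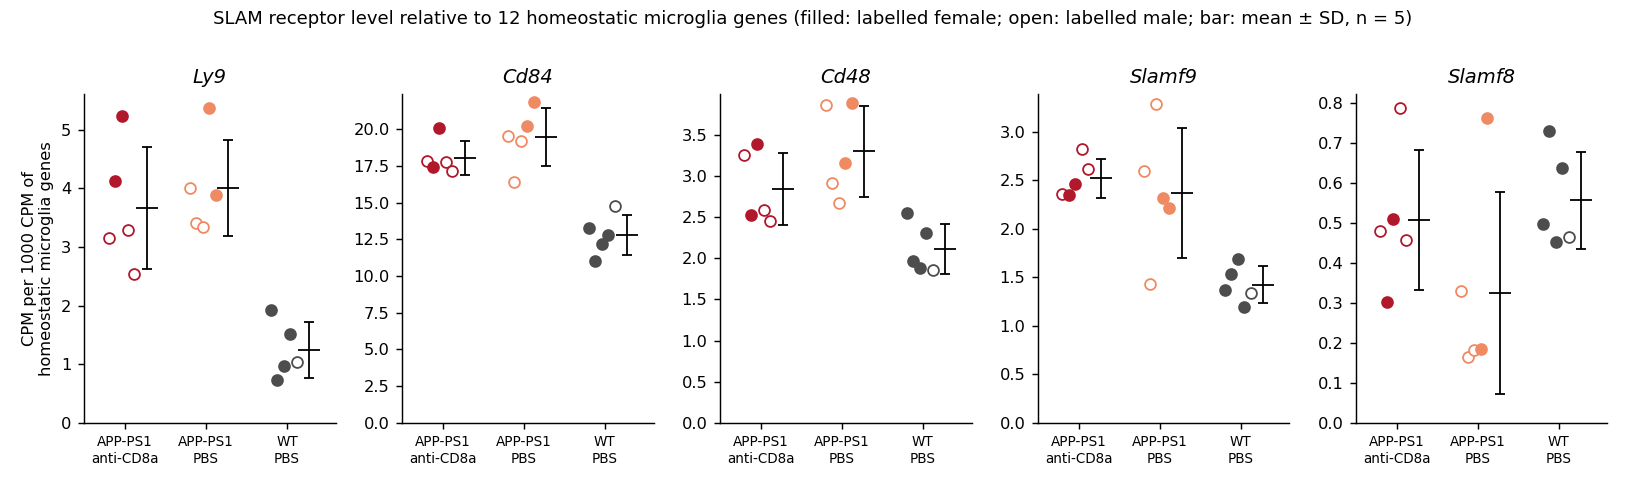
Level of each receptor per 1000 CPM of 12 homeostatic microglia genes in the same library (vertical axis, from 0), with mean ± SD over 5 libraries a group. Ly9 keeps both APP-PS1 groups above WT, at means of 3.67 and 4.01 against 1.24, Cd84 does so with smaller steps, and Slamf8 overlaps in all groups.

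Much of the spread within the anti-CD8a group came from 1 animal. Replicate 3 had the highest level of all 15 libraries for Ly9, Cd84, Cd48 and Slamf9, and the 5 members summed to 35.6 CPM there against 16.7 to 20.2 CPM in the other anti-CD8a libraries. The microglial sum was highest there too, at 1124 CPM against 755 CPM or less in the others of its group. Without replicate 3 the log2 fold change of anti-CD8a against WT was 2.18 for Ly9, 1.02 for Cd84, 0.97 for Cd48 and 1.38 for Slamf9. Against APP-PS1 PBS it was -0.27 for Ly9, -0.17 for Cd84, -0.30 for Cd48 and 0.06 for Slamf9, none past the edgeR threshold. In the PBS group, replicate 2 was the lowest library for 4 members, with a sum of 15.6 CPM, and in WT the sums ran between 7.65 and 9.96 CPM.

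Within the APP-PS1 groups labelled females had more Ly9 than labelled males, a comparison chosen after the values were seen and not past the test over all genes. Ly9 averaged 4.502 CPM in the 2 labelled females and 2.03 CPM in the 3 labelled males given anti-CD8a, and 3.63 CPM in the 2 labelled females and 2.43 CPM in the 3 labelled males given PBS. In both groups every labelled female lay above every labelled male for Ly9, in the PBS group by as little as 2.82 against 2.81 CPM. The labelled male at 2.81 CPM is APP-PS1 PBS replicate 1, whose RNA has the female pattern. With sex read from the RNA, Ly9 in the PBS group was at 2.81 to 4.45 CPM in females and 2.19 to 2.30 CPM in males. In the model of all 15 libraries the log2 difference between females and males was 0.80 (SE 0.22) for Ly9, 0.31 (SE 0.13) for Cd84, 0.43 (SE 0.17) for Cd48 and 0.22 (SE 0.18) for Slamf9. None passed in edgeR after adjustment over all genes (adjusted p = 0.641 for Ly9, 0.948 for Cd84, 0.940 for Cd48 and 0.9998 for Slamf9). The unadjusted p was 0.0024 for Ly9; 0.0105% of genes were called higher and 0.0211% lower in females. With sex taken from the RNA instead, which counts APP-PS1 PBS replicate 1 as female, Ly9 gave 0.80 (SE 0.22, edgeR adjusted p = 0.353) and Cd48 0.51 (SE 0.16, edgeR adjusted p = 0.363), against 0.0369% of genes higher and 0.0316% lower in females. WT held only 1 male, so whether the sexes differ without the transgenes could not be compared.

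The genes whose profile came closest to each receptor were sought among 15683 genes of at least 1 mean CPM, by the root mean square difference of centred log2 values over the 15 libraries. The points share their libraries and group structure, so closeness is a description. For Ly9, whose own deviation from its mean was 1.09 on that scale, the nearest were Ccl6 at 0.27, Gm49339 at 0.36, the lysozyme gene Lyz2 at 0.38, the chemokine gene Ccl3 at 0.41 and the lysosomal glycoprotein gene Cd68 at 0.42. Ccl6, a chemokine of myeloid cells, averaged 9.88 CPM with anti-CD8a, 10.5 CPM with PBS and 2.17 CPM in WT. Cd84, with an own deviation of 0.59, was nearest to Ly86 at 0.10, the leukocyte phosphatase gene Ptprc at 0.12, Gm8995 at 0.14, Plek at 0.14 and the astrocyte filament gene Gfap at 0.15.

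Cd48 was nearest to Ptprc at 0.17, the protease gene Ctss at 0.17, Ly86 at 0.18, Cd84 at 0.18 and Plek at 0.19, from an own deviation of 0.58. Slamf9, deviating by 0.66, was nearest to Gm8995 at 0.21 and to Slc11a1, Klhl6, Naip6 and Cd52 at 0.25 each. Slamf8 rests on so few counts that its nearest genes, led by Nr4a1 at 0.28 of an own deviation of 0.52, describe counting noise as much as a profile. Among the members themselves Cd84 and Cd48 were the closest pair at 0.18, and Ly9 and Slamf8 the most distant at 1.16.

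All 9 SLAM receptor genes of the table lie on chromosome 1 (GRCm38). In order of position, Cd244a starts at 171559193, Ly9 spans 171588624 to 171607410 on the minus strand inside the span of Cd244a, and Slamf7, Cd48 (171682009 to 171705258), Slamf1, Cd84 (171839697 to 171890718) and Slamf6 follow. Slamf9 (172475358 to 172478575) starts 557.8 kb after Slamf6, and Slamf8 (172581758 to 172590568, minus strand) lies beyond it. Ly9 and Cd244a share 0 exon bases, so reads of one should not be counted for the other. Slamf7 shares 423 exon bases, 9.24% of its exons, with the antisense gene Gm37787, where the counting's strand setting would matter.

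In the median, the neighbouring genes stayed near zero in every comparison. Besides the members, 92 genes start within 500 kb of a member, the other SLAM receptors among them, and 51 were tested. For APP-PS1 PBS against WT only Fcer1g was called (log2 fold change 0.95, SE 0.15, edgeR adjusted p = 0.00458), 17 of the 51 had a higher estimate, and their median log2 fold change was -0.07. For anti-CD8a against WT, Fcer1g, Slamf6 and Gm10521 were called, the last at 0.760 ± 0.163 CPM with anti-CD8a and 0.313 ± 0.163 CPM in WT (log2 fold change 1.49, SE 0.35, edgeR adjusted p = 0.0370). Between the APP-PS1 groups 0 of 51 were called, and the smallest p-values belonged to Vangl2 (log2 fold change 0.19, edgeR adjusted p = 0.289), Igsf8 (0.20, adjusted p = 0.300) and Nectin4 (0.29, adjusted p = 0.306).

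Cd84, Cd48 and Slamf9 stood higher in APP-PS1 brains, while Slamf8, at few counts, overlapped WT. The 250 bases before the transcription start of each are therefore shown (RefSeq, GRCm38.p6). Of the 5 members, 4 have an entry, Ly9 being named only. Each reads 5′ to 3′ towards the gene. Capitals mark matches on either strand to 4 motifs: the PU box GAGGAA, the AP-1 element TGANTCA, the interferon-stimulated element core GAAANNGAA and the E-box CACGTG.
Cd84, chr1:171839447-171839696, plus strand: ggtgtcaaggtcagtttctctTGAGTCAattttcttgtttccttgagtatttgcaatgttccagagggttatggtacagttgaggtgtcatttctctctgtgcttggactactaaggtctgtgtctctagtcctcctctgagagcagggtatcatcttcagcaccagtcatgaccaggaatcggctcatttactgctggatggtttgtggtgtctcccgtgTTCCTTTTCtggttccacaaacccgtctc
Cd48, chr1:171681742-171681991, plus strand: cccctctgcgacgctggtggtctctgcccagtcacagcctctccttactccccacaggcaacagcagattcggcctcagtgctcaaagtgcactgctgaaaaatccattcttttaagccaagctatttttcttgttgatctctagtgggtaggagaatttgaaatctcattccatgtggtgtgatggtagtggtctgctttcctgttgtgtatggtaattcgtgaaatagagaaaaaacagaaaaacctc
Slamf9, chr1:172475110-172475359, plus strand: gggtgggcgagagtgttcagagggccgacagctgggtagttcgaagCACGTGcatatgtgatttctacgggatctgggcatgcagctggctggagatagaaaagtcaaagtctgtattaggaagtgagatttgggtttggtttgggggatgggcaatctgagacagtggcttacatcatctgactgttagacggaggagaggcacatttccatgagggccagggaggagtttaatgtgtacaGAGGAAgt
Slamf8, chr1:172590569-172590818, minus strand: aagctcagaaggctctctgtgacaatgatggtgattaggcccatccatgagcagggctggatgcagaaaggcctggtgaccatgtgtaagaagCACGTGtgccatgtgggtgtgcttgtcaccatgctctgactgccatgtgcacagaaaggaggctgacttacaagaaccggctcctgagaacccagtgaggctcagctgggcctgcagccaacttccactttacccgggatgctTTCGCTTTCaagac

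None of the 4 motifs was common to Cd84, Cd48 and Slamf9. Cd84 holds an AP-1 element that begins 229 bases before the start and an interferon core on the other strand at 29 bases; over 32851 promoters of the same length, 6.75% hold an AP-1 element and 7.13% an interferon core. Slamf9 holds a PU box at 8 bases, a motif of 23.3% of promoters, and an E-box at 204 bases, a motif of 6.02%. Slamf8, which overlapped WT at few counts and was not tested against it, also holds an E-box, at 157 bases. It has an interferon core on the other strand at 14 bases. Cd48 holds none of the 4 in this window. A match is only a run of letters, and neither a match nor its lack says whether a factor binds.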

How the data were processed

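Poly(A) RNA from 15 mouse brain samples was sequenced with a stranded library kit on a NextSeq500, per the labels' protocols. The authors deposited 1 table of raw read counts per Ensembl gene for all libraries, made with FastQC, Bowtie2 2.2.2, HTSeq 0.11.2 and GRCm38, with DESeq2 also named, per the submitters' processing notes; the strand setting and annotation release were not given in the sources used here. Bowtie2 does not align reads across introns, so spliced reads of genes with short exons can be lost. Between 19.97% and 25.85% of reads fell in no feature and 1.635% to 1.787% were ambiguous; the 5 HTSeq lines that hold them were left out. Of 322 genes lying wholly under exons of the other strand, 25 had any count. Within groups, no 2 libraries were alike (chi-square per degree of freedom 7.94 to 39.4 over 30 pairs).

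Symbols matched 45143 of 46078 identifiers. Replicates are numbered in accession order and name single mice. Counts were fitted with edgeR 4.0.16 (R 4.3.3) by quasi-likelihood, TMM factors and a model of group and labelled sex over all 15 libraries, on 18974 genes kept by filterByExpr, and p-values were adjusted by Benjamini-Hochberg with a threshold of 0.05. Intervals at 95% are from the model. Receptors below the filter were tested by exact permutation (scipy 1.17.1). Floors of 3 counts cover counting error only. The fit was tested on simulated data. Alternatives were DESeq2 1.42.0, limma-voom 3.58.1, other scalings, filters and covariates, and leaving out libraries; the fit by sex was added after the values were seen. Named genes are all members, the genes of the lists that passed a comparison, otherwise those of smallest p, and the 5 nearest in profile of each member, which used log2(CPM + 0.1); 1 gene that the rule takes is not reported here. Exon lengths came from GENCODE M21. The members, lists and motifs were chosen with earlier results of these data known.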

Additional observations from a re-analysis of the deposited data

Results flagged for a closer look

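Among 33 sets of 5 libraries examined (each receptor and each microglial sum in each group), 8 had 1 library far from the other 4, by the gap to its neighbour over the whole range; chance alone flags about 1 in 20 such sets. Anti-CD8a replicate 3 accounted for 5 of them: Cd84 at 22.53 CPM with the next library at 13.18 CPM, Cd48 at 3.805 CPM with the next at 2.036 CPM, Cd244a at 0.7072 CPM with the next at 0.2568 CPM, the homeostatic microglia sum at 1124 CPM with the next at 755 CPM, and the plaque-associated microglia sum at 1553 CPM with the next at 926 CPM. APP-PS1 PBS replicate 4 stood apart for Ly9 at 4.453 CPM, the next library having 2.816 CPM, and for the plaque-associated microglia sum at 1193 CPM, the next having 929 CPM. Slamf8 in APP-PS1 PBS replicate 5 was at 0.5521 CPM, from 10 counts, with the next library at 0.2314 CPM. Sums and receptors were high in the same 2 animals, both labelled female, and the part of either in the other was not tested.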

How the results depend on the processing

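The members were chosen with the WT contrasts known, so their values across 26 alternative settings are a description. Without the 5 choroid-rich libraries Cd48 was no longer called against WT, at log2 fold changes of 1.36 (SE 0.33) for APP-PS1 PBS and 1.18 (SE 0.29) for anti-CD8a; the SE in the fit of all libraries was 0.21 for each. Across settings the log2 fold change of APP-PS1 PBS against WT ran between 2.25 and 2.75 for Ly9, 1.15 and 1.49 for Cd84, 1.18 and 1.41 for Cd48 and 1.25 and 1.59 for Slamf9. Between the APP-PS1 groups, signs near zero turned, and the cause was not tested: Cd84 was -0.0163 with limma-voom, -0.0008 with only the 2 groups and -0.054 without choroid-rich libraries; Ly9 was 0.0388 without sex and 0.14 with sex read from genes, where Cd48 was 0.0231. Leaving out 1 library gave -0.267 to 0.0755 for Ly9, -0.173 to 0.0833 for Cd84, -0.299 to 0.0263 for Cd48, -0.0707 to 0.262 for Slamf6 and -0.297 to 0.0431 for Slamf7. Relative to microglia, the log2 ratio of Slamf8 for anti-CD8a against WT was -0.13, and 0.53 in CPM. Over all genes, calls for APP-PS1 PBS against WT numbered 195, against 358 with DESeq2, 115 without sex and 98 without choroid-rich libraries; for anti-CD8a against WT 369, against 221 with 2 groups, 199 without choroid-rich libraries and 140 without anti-CD8a replicate 3; for anti-CD8a against APP-PS1 PBS 0, against 143 with DESeq2, 13 unfiltered, 1 with 2 groups and up to 3 leaving out 1 library. DESeq2 gave no adjusted p for Ly9, Cd48 and Slamf9 there. No paired analysis was possible because the replicate numbers follow accession order and the groups share no animal.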
